A study of Rattus norvegicus with 6 samples.

Results

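The proteasome and ubiquitin genes were followed across 6 rat ovary arrays as every probe set whose platform annotation gave exactly 1 symbol beginning with Psma, Psmb, Psmc, Psmd, Psme, Ube2, Uba or Uch. The rule found 68 of the 8799 probe sets on the array, for 41 of 4737 genes that have a probe set with 1 symbol. The arrays measured total RNA of whole rat ovaries, each from a pool of about 20 ovaries, on a short-oligonucleotide Affymetrix array, in 3 groups of 2 independent pools. The cultured group was taken at birth and kept whole for 7 days on floating filters in DMEM-Ham's F-12 with albumin, Albumax, transferrin, insulin, ascorbic acid and antibiotics. The P4 group was taken on postnatal day 4 and the P0 group on the day of birth, both without culture, and no strain is stated. Cultured ovaries thus had no freshly taken group of the same age. The series' design text also speaks of progesterone given to cultured ovaries. No sample label gives it, so both cultured arrays are taken as replicates of 1 condition, and whether either was treated is not settled.

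The proteasome is the large protease that destroys proteins tagged with ubiquitin. Its 20S core is a barrel of outer alpha rings and inner beta rings, and the beta rings hold the cutting sites. The 19S cap, made of a base with ATPases and a lid, recognises and unfolds the tagged protein. Ubiquitin is attached through E1 activating, E2 conjugating and E3 ligase enzymes. Under interferon, cells make the catalytic beta subunits Psmb8, Psmb9 and Psmb10, which replace Psmb5, Psmb6 and Psmb7 in newly built cores (the immunoproteasome), and the 11S activator of Psme1 and Psme2, which opens the core. These forms favour peptides that the Tap transporter carries to MHC class I molecules. In the ovary, proteasomes degrade cyclins and other regulators of the oocyte's meiotic divisions, and Uchl1, a ubiquitin hydrolase, is abundant in oocytes and neurons.

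The 68 probe sets comprised 13 for 20S alpha subunits, 11 for constitutive beta subunits, 3 for interferon-induced beta subunits, 6 for 19S base ATPases, 11 for other 19S subunits, 5 for activators, 14 for E2 enzymes, 3 for Uchl1 and 2 for the other prefix matches Ubac2 and Ubald1, which are not E1 enzymes. Psmb10, Uchl3 and the E1 enzymes were not analysed here. A further 6 probe sets matched the prefixes but carried several symbols, among them those of Psmb6, the counterpart of Psmb9, and of Psma3 and Psme3, and they stayed out. Of the 68, 62 probe sets for 39 genes passed the filter on dim probe sets and were tested. The 6 others were 1 probe set each of Psme1, Psmd1, Psma5, Psma6, Ube2d2b and Ube2m, and the last 2 genes had no other. Of the 39 tested genes, 16 had more than 1 tested probe set, so probe sets are not independent witnesses of a change. Their log2 changes differed within a gene by a median of 0.17 for P4 against P0, 0.24 for cultured against P0 and 0.24 for cultured against P4. The widest such gaps were 0.55 for Psmd1, 0.73 for Psma1 and 0.85 for Ube2b.

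Values are linear intensities, and log2 changes are differences of log2(intensity + 7.7) fitted with limma, which understates the change of dim probe sets. Calls were made where the limma adjusted p, corrected by Benjamini-Hochberg across the 6118 tested probe sets, was under 0.05. With 2 arrays a group, the smallest exact permutation p is 0.33, so no single value can pass on its own arrays. Replicate arrays correlated at 0.962 to 0.969 across probe sets. GAPDH control probes read 1386.3 and 1324.2 on P0 replicate 1, against 2005.7 to 2775.1 on the other 5 arrays. In whole ovaries, fewer cells of a type and less RNA per cell cannot be told apart. As a check of the tissue, the oocyte coat genes Zp1, Zp2 and Zp3 were measured in every group, and Zp2 read 1373.9 and 1309.9 in cultured ovaries and 1782.3 and 1466.4 at P4, against 282.4 and 338.3 at P0.

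The promoters of 4 members are printed: Psmb8 and Psme2, called higher in culture, Psmb9, the other immunoproteasome subunit measured, and Psmb5, the constitutive subunit that Psmb8 replaces. That of Ube2g2, also called higher in culture, is not printed, and no expression value rests on these sequences. Each printed promoter is the RefSeq sequence of rat build GRCr8 from 250 bases before to 50 bases after the gene's start, 5′ to 3′ on the gene's strand. Capitals mark matches on either strand to the core of the interferon-stimulated response element (GAAANNGAA, or TTCNNTTTC on the other strand) or to the interferon gamma-activated site (TTCNNNGAA), which do not overlap here. The windows lie at chr20:4656982-4657281 (minus strand) for Psmb8, chr15:33052702-33053001 (minus strand) for Psme2, chr20:4668750-4669049 (plus strand) for Psmb9 and chr15:32047330-32047629 (minus strand) for Psmb5.
Psmb8: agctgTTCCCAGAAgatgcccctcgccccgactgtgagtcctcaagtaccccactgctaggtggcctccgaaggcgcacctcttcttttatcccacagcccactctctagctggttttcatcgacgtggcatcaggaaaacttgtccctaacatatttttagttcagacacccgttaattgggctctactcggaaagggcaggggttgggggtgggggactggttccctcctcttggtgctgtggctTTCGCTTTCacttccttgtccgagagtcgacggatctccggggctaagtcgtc
Psme2: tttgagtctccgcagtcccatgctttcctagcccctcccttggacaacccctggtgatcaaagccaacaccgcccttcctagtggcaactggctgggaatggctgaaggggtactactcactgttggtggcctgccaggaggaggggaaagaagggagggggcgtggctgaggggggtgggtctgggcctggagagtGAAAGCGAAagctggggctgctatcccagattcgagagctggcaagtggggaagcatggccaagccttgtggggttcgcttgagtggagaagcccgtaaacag
Psmb9: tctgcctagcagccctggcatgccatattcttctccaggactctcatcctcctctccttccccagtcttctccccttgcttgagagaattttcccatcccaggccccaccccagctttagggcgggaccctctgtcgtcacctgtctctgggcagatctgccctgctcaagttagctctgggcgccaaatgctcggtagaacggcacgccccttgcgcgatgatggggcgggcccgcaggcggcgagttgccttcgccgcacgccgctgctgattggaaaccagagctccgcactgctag
Psmb5: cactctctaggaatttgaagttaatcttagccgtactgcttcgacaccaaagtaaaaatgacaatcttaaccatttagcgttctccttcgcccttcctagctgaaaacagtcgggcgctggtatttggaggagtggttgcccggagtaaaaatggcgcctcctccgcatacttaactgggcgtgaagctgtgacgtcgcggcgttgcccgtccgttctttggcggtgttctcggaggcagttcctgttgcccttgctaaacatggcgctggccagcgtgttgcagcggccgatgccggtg

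Psmb8 held TTCGCTTTC from position -3 to 6 (counted from the start as 1, with no 0) and TTCCCAGAA from -245 to -237, while Psme2 held GAAAGCGAA from -53 to -45. The windows of Psmb9 and Psmb5 held neither set of letters. The window of Tap1, the transporter gene next to Psmb9, shares 44 bases with the Psmb9 window and held TTCGGTTTC from -120 to -112. In the RefSeq order of rat chromosome 20 the genes run Tap2, Psmb8, Tap1, Psmb9 within the MHC region. Of 33469 rat promoter windows, 9.71% held the first motif and 8.87% the second. Among the 40 members with a window, 6 held the first (Psmb8, Psme2, Psmb2, Psmb3, Psma4 and Psmd11) and 2 the second (Psmb8 and Uchl1). Of the 6, 4 are constitutive proteasome genes, out of 21 of these with a window, and none of the 4 was called. Ube2g2, called higher in culture, is not among the genes with either motif. The motifs thus did not separate called from uncalled members. Letters alone do not show that a factor binds, and their absence from a window shows nothing about the factor.

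Psmb8, the interferon-induced subunit that takes the chymotrypsin-like site, was the only member called in both comparisons with culture. Its probe set read 286.8 and 249.6 in cultured ovaries, 124.8 and 97.2 at P4, and 114.1 and 102.1 at P0. Both cultured arrays stood above all 4 fresh ones, and the P4 and P0 arrays were interleaved. The means were 268.2 ± 26.3 in culture, 111.0 ± 19.5 at P4 and 108.1 ± 8.49 at P0 (SD, n = 2 each). Psmb8 rose 2.48-fold against P0 (log2 change 1.25, SE 0.22, 95% interval 0.75 to 1.75, limma adjusted p = 0.013). Against P4 it rose 2.42-fold (log2 change 1.22, SE 0.22, limma adjusted p = 0.0183). Between P4 and P0 its log2 change was 0.03 (limma adjusted p = 0.979), with a 95% interval of -0.47 to 0.53. With 1 array fewer these calls could be lost, and fewer of all probe sets tested were called higher too. Against P0 the log2 change was 1.18 without P0 replicate 2, 1.15 without cultured replicate 1 and 1.35 without cultured replicate 2. Against P4 it was 1.05 without P4 replicate 2, 1.13 without cultured replicate 1 and 1.32 without cultured replicate 2.

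Psmb9, the interferon-induced partner of Psmb8, was read by a pair of probe sets, neither of which was called in any comparison. One (D10757_at) read 107.9 and 80.4 in cultured ovaries, 65.3 and 56.3 at P4, and 70.4 and 53.0 at P0. The other (D10757_g_at) read 169.1 and 146.0 in cultured ovaries, 96.9 and 96.0 at P4, and 128.9 and 83.8 at P0. On both, the cultured arrays lay above all the fresh arrays, while P4 and P0 overlapped. The log2 changes for cultured against P0 were 0.55 and 0.56 (limma adjusted p = 0.248 and 0.236), and those for cultured against P4 were 0.56 and 0.66 (limma adjusted p = 0.352 and 0.251). For P4 against P0 they were -0.01 and -0.10.

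**Figure D1:**
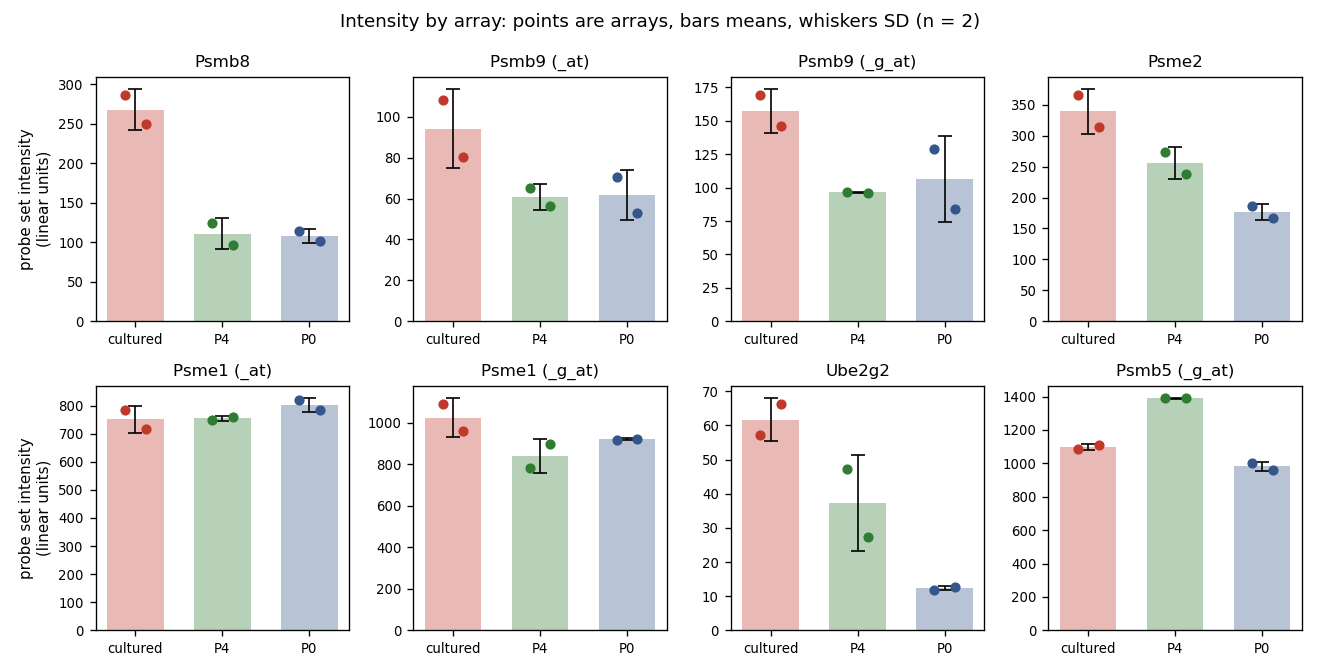
Linear probe set intensity (vertical axes, starting at 0) of 8 member probe sets in cultured, P4 and P0 ovaries. Points are arrays, bars are means and whiskers are SD (n = 2). Psmb8 reads 249.6 or more on both cultured arrays and at most 124.8 on the 4 fresh ones, whereas Psmb5 is highest at P4.

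Among the activators, Psme2, the beta subunit of the 11S cap, rose in culture against P0. It read 365.0 and 313.6 in cultured ovaries, 273.7 and 238.0 at P4, and 186.4 and 167.7 at P0. The 3 groups did not overlap, with cultured highest and P0 lowest. Its log2 change for cultured against P0 was 0.91 (SE 0.21, 95% interval 0.45 to 1.37, limma adjusted p = 0.0345), a 1.92-fold difference of means. The log2 change was 0.40 for cultured against P4 (limma adjusted p = 0.444) and 0.51 for P4 against P0 (limma adjusted p = 0.323), with 0.54 and 0.49 within the 2 chip ID batches that hold a P4 and a P0 array each. The call was not kept without the intensity trend of the variances (limma adjusted p = 0.0649). It was also lost without P0 replicate 1 (log2 change 0.98) or 2 (0.83), and without cultured replicate 1 (0.80) or 2 (1.01).

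Psme1 encodes the alpha subunit that joins Psme2 in the same ring. One probe set (D45249_at) read 785.4 and 717.9 in cultured ovaries, 749.2 and 760.5 at P4, and 820.3 and 784.0 at P0. The other (D45249_g_at) read 1093.2 and 959.0 in cultured ovaries, 781.1 and 898.5 at P4, and 917.4 and 923.9 at P0. Their log2 changes for cultured against P0 were -0.09 and 0.15 (limma adjusted p = 0.807 and 0.667), beside 0.91 for Psme2. Psme4, the PA200 activator, read 163.3 and 95.3 in culture, 155.4 and 131.1 at P4, and 224.4 and 162.7 at P0 (cultured against P0 -0.58, limma adjusted p = 0.289).

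The constitutive proteasome, meaning the alpha, constitutive beta and 19S lists, was covered by 38 tested probe sets for 22 genes. The 19S lists count Psmd10, a chaperone of base assembly, with the subunits. None of the 38 was called in any comparison. The smallest limma adjusted p among them was 0.164 for cultured against P0, 0.281 for cultured against P4 and 0.174 for P4 against P0. The 95% interval of the log2 change held 0 for 36, 37 and 35 of the 38 in that order, and lay within 1 log2 unit of 0 for 36, 36 and 35. The median half-width of these intervals was 0.46, so smaller changes could not be told from 0 for a typical probe set. Across the 6 arrays the constitutive probe sets varied by a median range of 0.52 log2 units, against 0.95 for the 3 of Psmb8 and Psmb9 and 0.77 over all probe sets tested. Median intensities were 487.4, 120.1 and 81.7 in that order, so these ranges are not matched for brightness.

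Set beside each other, the median log2 change of the 38 constitutive probe sets was 0.04 for cultured against P0 and -0.13 for cultured against P4. The 3 probe sets of Psmb8 and Psmb9 had medians of 0.56 and 0.66, and all probe sets tested had medians of -0.08 and -0.04. Without P0 replicate 2 the constitutive median for cultured against P0 was -0.066, and without P4 replicate 1 that for cultured against P4 was -0.0341. The median of Psmb8 and Psmb9 for cultured against P0 was 0.85 without P0 replicate 1 and 0.37 without P0 replicate 2. For P4 against P0 the medians were 0.16 for the constitutive probe sets, -0.01 for Psmb8 and Psmb9, and -0.05 over all probe sets, and that of Psmb8 and Psmb9 ran from -0.192 to 0.171 on leaving out either P0 array. Subtracting each array's constitutive median, with the P0 mean set to 0, put Psmb8 at 1.13 and 0.97 in culture, -0.03 and -0.43 at P4, and -0.03 and 0.03 at P0. On that scale the D10757_at probe set of Psmb9 stood at 0.53 and 0.17 in culture, -0.14 and -0.39 at P4, and 0.08 and -0.08 at P0. Psme2 stood at 0.79 and 0.62 in culture, 0.38 and 0.13 at P4, and -0.03 and 0.03 at P0. The distance from the constitutive genes was thus wider for Psmb8 than for Psme2 on both cultured arrays.

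**Figure D2:**
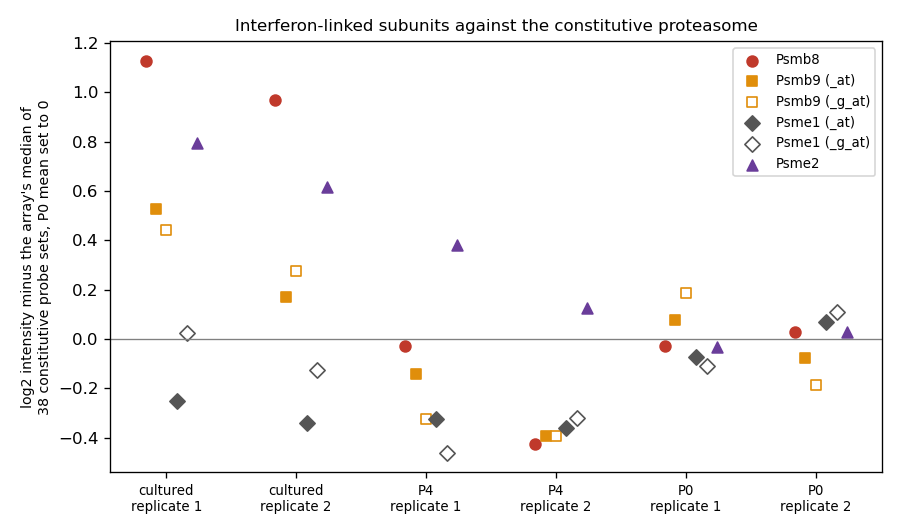
Log2 intensity of interferon-linked subunits minus the median of 38 constitutive probe sets on the same array (vertical axis, log2 units, mean of the P0 arrays set to 0), for each array from cultured to P0. Psmb8 lies at 1.13 and 0.97 in culture and at or below 0.03 on the 4 fresh arrays, and both Psme1 probe sets stay at or below 0.11.

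Within the constitutive beta subunits, Psmb5, the chymotrypsin-like subunit that Psmb8 replaces, was brightest at P4. Its D45247_g_at probe set read 1087.1 and 1110.6 in cultured ovaries, 1391.8 and 1388.9 at P4, and 1001.6 and 961.8 at P0. The 3 groups did not overlap. Its log2 change for P4 against P0 was 0.50 (SE 0.15, 95% interval 0.16 to 0.84, limma adjusted p = 0.174), or 0.47 and 0.53 within the chip ID batches. It passed only with chip ID batch as a random block (limma adjusted p = 0.048). That setting called 3.37% of all probe sets tested higher, against 0.85% without it. For cultured against P0 the change was 0.16 (limma adjusted p = 0.603) and for cultured against P4 -0.34 (limma adjusted p = 0.367). The other probe sets of Psmb5 gave 0.33 and 0.42 for P4 against P0. The rc_AA891226_s_at probe set, one of these, read 646.5 and 608.1 in culture, 786.9 and 574.1 at P4, and 472.0 and 528.3 at P0, with both P0 arrays lowest. In culture Psmb5 differed from P0 by less than Psmb8 did, with log2 changes of 0.16, 0.20 and 0.32 on its 3 probe sets against 1.25 for Psmb8.

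None of the other constitutive beta subunits was called. Psmb4, which has no cutting site, read 866.8 and 983.1 in culture, 1047.1 and 1148.9 at P4, and 1076.6 and 909.3 at P0 on L17127_at, and the P0 arrays overlapped both other groups. Psmb2, which also has none, read 415.2 and 386.4 in culture, 458.6 and 551.9 at P4, and 392.1 and 414.1 at P0 on D21799_at. Both P4 arrays were highest there, with a log2 change of 0.31 for P4 against P0 (limma adjusted p = 0.543). Psmb3, a structural subunit, had log2 changes on D21800_at of -0.34 for cultured against P0 and -0.36 for cultured against P4 (limma adjusted p = 0.424 and 0.53), and Psmb1, with a single probe set, had log2 changes of 0.11 for cultured against P0 and 0.24 for P4 against P0. Over the 11 constitutive beta probe sets the log2 changes lay between -0.34 and 0.32 for cultured against P0, between -0.36 and 0.21 for cultured against P4 and between -0.01 and 0.50 for P4 against P0.

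In the alpha ring, whose subunits gate the entry to the core, the D90265_s_at probe set of Psma1 read 556.2 and 719.7 in culture, 639.8 and 591.0 at P4, and 475.5 and 393.7 at P0. Its log2 changes were 0.54 for cultured against P0 (limma adjusted p = 0.164) and 0.50 for P4 against P0 (limma adjusted p = 0.33). A dimmer probe set of Psma1 gave -0.19 and 0.04, so the pair differed on this gene. The brightest alpha probe set was that of Psma6, at 1132.7 and 1548.8 in culture, 1382.5 and 1367.4 at P4, and 1526.5 and 1297.0 at P0, with the groups overlapping throughout. Psma7 on D30804_g_at read 873.3 and 1174.4 in culture, 1089.9 and 929.9 at P4, and 894.8 and 629.7 at P0 (cultured against P0 0.43, limma adjusted p = 0.326), but its other probe set gave -0.18. Psma2 on E03358cds_at read 311.5 and 356.1 in culture, 354.1 and 172.7 at P4, and 215.8 and 267.7 at P0 (cultured against P0 0.46, limma adjusted p = 0.45). Here both cultured arrays were above both P0 arrays, while the P4 pools lay far apart. The 11 alpha probe sets, which also cover Psma4 and Psma5, had log2 changes between -0.19 and 0.54 for cultured against P0 and between -0.05 and 0.50 for P4 against P0.

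Of the 19S subunits, Psmd1, a scaffold of the base, had a probe set (AJ006340_s_at) at 195.7 and 122.6 in culture, 230.4 and 266.9 at P4, and 163.9 and 140.4 at P0. Both P4 arrays were above the other 4, with log2 changes of 0.68 for P4 against P0 (limma adjusted p = 0.276) and -0.65 for cultured against P4 (limma adjusted p = 0.281). The other tested Psmd1 probe sets gave 0.36 and 0.13 for P4 against P0. Psmd10 (gankyrin), a chaperone of base assembly, read 46.5 and 70.3 in culture, 62.1 and 68.1 at P4, and 48.0 and 35.9 at P0 (P4 against P0 0.56, limma adjusted p = 0.425). Psmd4, a ubiquitin receptor of the cap, had a probe set (AB017188_g_at) at 536.5 and 584.9 in culture, 612.6 and 573.0 at P4, and 488.3 and 471.0 at P0. That is 0.30 for P4 against P0 (limma adjusted p = 0.532), with both P4 arrays above both P0 arrays. The 10 tested probe sets of non-ATPase subunits, which also cover Psmd2, Psmd11 and Psmd13, had log2 changes between -0.13 and 0.40 for cultured against P0, between -0.65 and 0.32 for cultured against P4 and between -0.17 and 0.68 for P4 against P0.

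Of the base ATPases, which unfold the substrate, none had both P4 arrays above both P0 arrays. Psmc2 on U13895_s_at read 166.8 and 249.1 in culture, 294.5 and 265.7 at P4, and 323.7 and 280.5 at P0. Both cultured arrays were lowest (cultured against P0 -0.55, limma adjusted p = 0.229). Psmc4 read 228.0 and 204.0 in culture, 320.1 and 214.3 at P4, and 229.2 and 134.6 at P0 (P4 against P0 0.56, limma adjusted p = 0.468). Both P4 readings straddled the higher P0 reading. Psmc1 read 357.4 and 443.2 in culture, 437.5 and 341.2 at P4, and 451.9 and 418.6 at P0, with log2 changes of -0.13 for cultured against P0 and 0.04 for cultured against P4. The log2 changes of the 6 base ATPase probe sets, Psmc3 and Psmc5 included, lay between -0.55 and 0.28 for cultured against P0 and between -0.17 and 0.56 for P4 against P0.

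**Figure D3:**
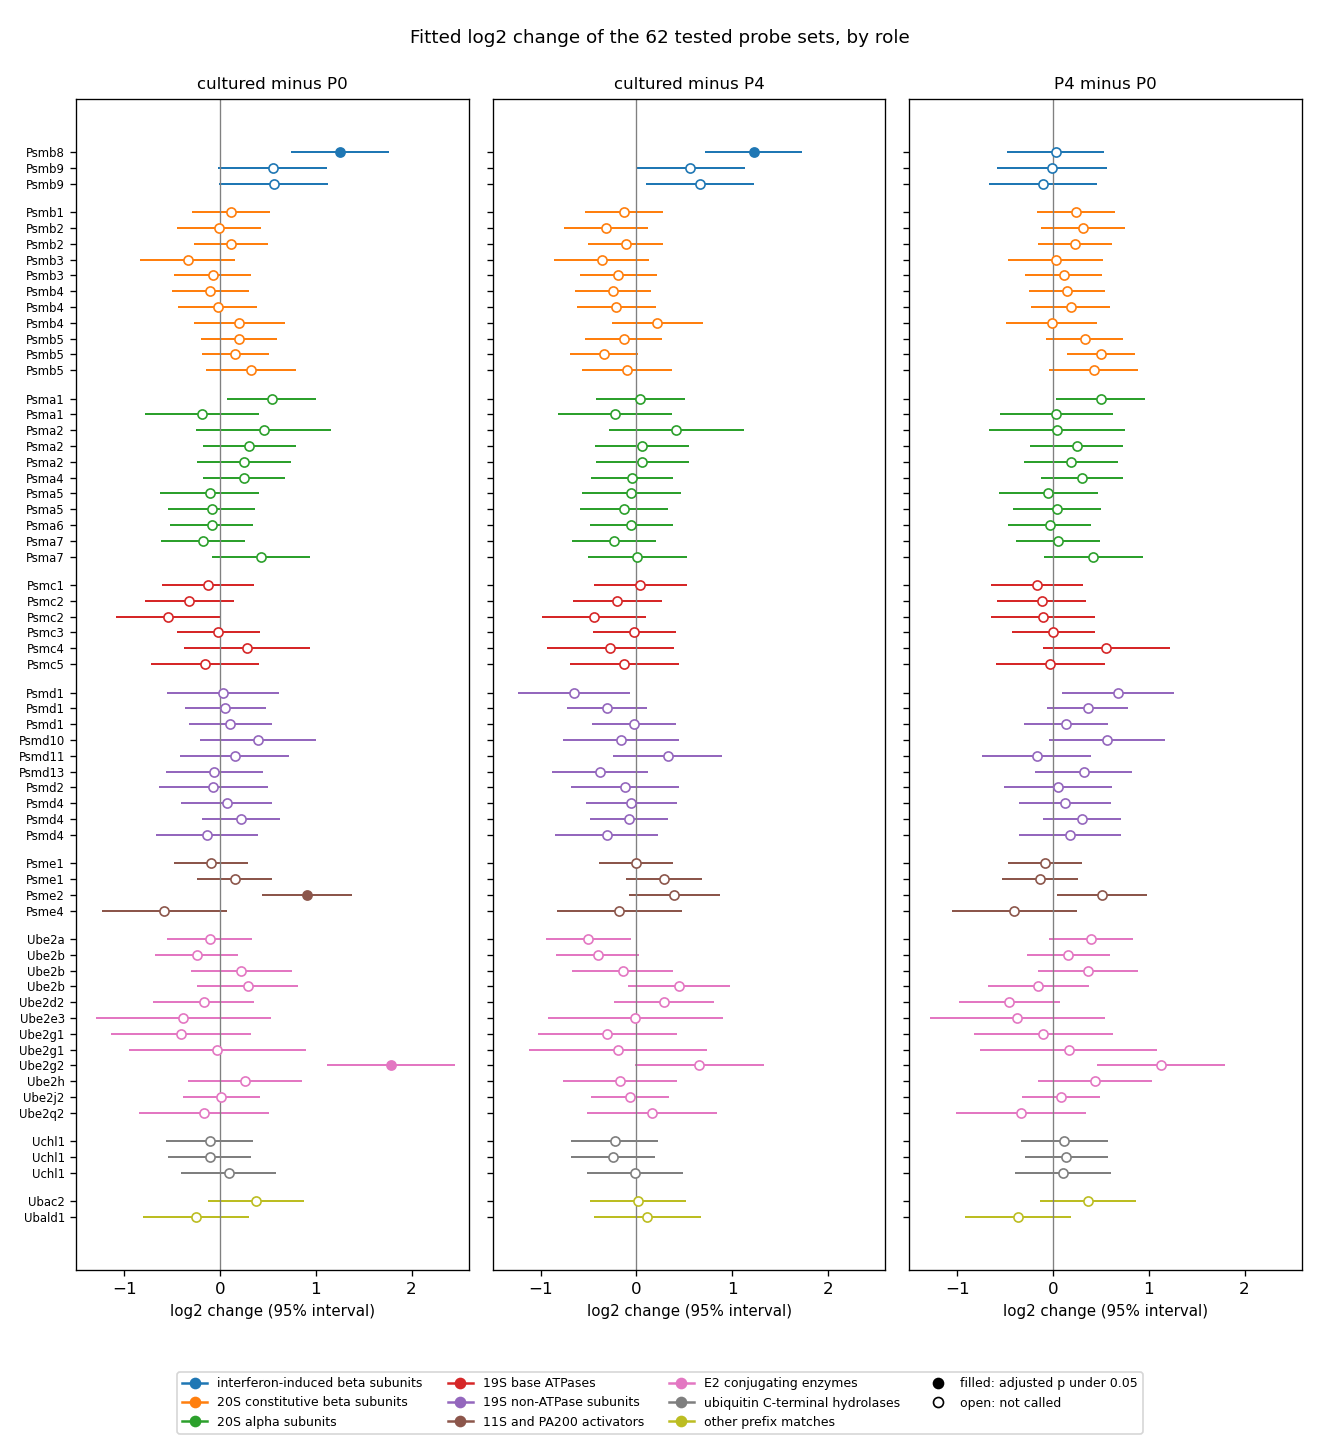
Fitted log2 change (horizontal axes) with its 95% interval for each of the 62 tested member probe sets, grouped by role and labelled by gene, for cultured minus P0, cultured minus P4 and P4 minus P0. The Ube2g2 points against P0 are fitted to P0 readings under 20, the highest reading of the unspiked controls. Filled points have a limma adjusted p under 0.05: Psmb8, Psme2 and Ube2g2 for cultured minus P0, Psmb8 for cultured minus P4, and none for P4 minus P0.

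For cultured against P0, 3 of the 62 tested member probe sets were called higher and 0 lower, against a background of 3.48% higher and 1.95% lower over all probe sets tested. At an unadjusted p under 0.05 the members gave 5 higher and 1 lower, where 10.2% and 10.5% of all probe sets tested did so. For cultured against P4, 1 was called higher and 0 lower, where the background was 2.16% and 0.621%, and an unadjusted p under 0.05 gave 3 and 2, where the background was 7.63% and 6.39%. For P4 against P0, 0 were called in either direction by limma, where the background was 0.85% higher and 0.229% lower, and an unadjusted p under 0.05 gave 5 and 0, where the background was 6.51% and 6.46%. The shares of adjusted calls are near the background, so their number did not set the members apart. What the called members were is described gene by gene.

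Counts of probe sets whose groups did not overlap leaned more to one side. For P4 against P0, 17 of the 38 constitutive probe sets (44.7%) had both P4 arrays above both P0 arrays and 0 the opposite, where 18.6% and 25.7% of all probe sets tested did so. The 17 were 7 of 10 non-ATPase 19S, 7 of 11 beta and 3 of 11 alpha probe sets, and 0 of 6 base ATPases. The median log2 change was 0.24, 0.23, 0.06 and -0.07 for those 4 roles. Within the 2 chip ID batches the constitutive median was 0.18 and 0.15, and 23 of 38 probe sets (60.5%) were higher at P4 in both, where all probe sets tested had medians of -0.07 and -0.01 and 27.9% were higher in both. Without P4 replicate 1 the constitutive median was 0.0647. Since none of these passed the test by itself, the lean is a count over probe sets that partly share genes and all share the same 4 arrays.

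For cultured against P4, 1 constitutive probe set lay wholly above and 14 of 38 (36.8%) wholly below, where 19.1% and 24.5% of all probe sets did, and 7 of the 14 were beta subunits. For cultured against P0, 9 (23.7%) lay wholly above and 5 (13.2%) wholly below, where 21.3% and 29% of all probe sets did. Both of these comparisons and that of P4 with P0 share arrays, so their counts are not separate observations. After quantile normalization, added after the data were seen, the constitutive counts above and below were 17 and 0 for P4 against P0, 0 and 11 for cultured against P4, and 8 and 6 for cultured against P0. Of all probe sets tested, 20.6% and 22%, 19.3% and 25.6%, and 22.4% and 27.6% did so in that order. The 8 higher ones for cultured against P0 and the 11 lower ones for cultured against P4 are thus near the background.

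Among the E2 enzymes, Ube2g2, which serves the degradation of misfolded proteins from the endoplasmic reticulum, was called higher in culture than at P0. It read 57.2 and 66.2 in cultured ovaries, 47.2 and 27.4 at P4, and 11.9 and 12.8 at P0. All 3 groups were apart, and both P0 arrays were under 20, the highest reading of the 23 controls whose transcript was not spiked in, which was taken as a floor after the data were seen. The limma fit used the readings without the floor (cultured against P0 log2 change 1.79, limma adjusted p = 0.00951). With arrays under the floor set to it, Ube2g2 was at least 3.08-fold higher in culture than at P0, a bound that was not itself tested. At P4 this bound was 1.80-fold above P0, or 2.36-fold and 1.37-fold in the chip ID batches. Without the floor, P4 against P0 had limma adjusted p = 0.12, and it passed with chip ID batch as a random block (limma adjusted p = 0.0295). Against P4 the cultured value was 0.66 log2 units higher (limma adjusted p = 0.357). The call against P0 was not kept without cultured replicate 1 (log2 change 1.88) or 2 (1.695).

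The other E2 probe sets were not called. Ube2a, a RAD6-type enzyme that can modify histones, read 272.1 and 240.9 in culture, 356.3 and 375.4 at P4, and 277.7 and 274.6 at P0, with both P4 arrays highest (cultured against P4 -0.50, limma adjusted p = 0.266). Its close relative Ube2b on M62388_at read 281.4 and 317.5 in culture, 389.9 and 406.2 at P4, and 365.1 and 346.1 at P0 (cultured against P4 -0.40, limma adjusted p = 0.388). A further Ube2b probe set gave 0.44 in that comparison, the widest disagreement within any member gene. Ube2j2, a membrane-bound enzyme of the endoplasmic reticulum, lay between 536.1 and 619.4 on all 6 arrays. The 12 tested E2 probe sets, which also cover Ube2d2, Ube2e3, Ube2g1, Ube2h and Ube2q2, had a median log2 change of -0.07 for cultured against P0, -0.11 for cultured against P4 and 0.12 for P4 against P0.

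Uchl1 was bright on all its 3 probe sets and was called in no comparison. Over the 3 probe sets it read 1139.5 to 1670.8 in culture, 1154.0 to 1947.5 at P4 and 1185.7 to 1548.0 at P0. Its log2 changes lay between -0.25 and 0.14 over the 3 comparisons. On each probe set P4 replicate 2 read highest of the 6 arrays and P4 replicate 1 read below both P0 arrays, so the P4 pools differed from each other by more than the group means did. The remaining prefix matches were Ubac2, a protein of the endoplasmic reticulum with a ubiquitin-associated domain, and Ubald1, with a related domain. Ubac2 read 132.0 and 106.2 in culture, 117.2 and 117.3 at P4, and 85.1 and 93.8 at P0, where the P0 arrays were lowest (cultured against P0 0.38, limma adjusted p = 0.371). Ubald1 read 75.8 and 76.5 in culture, 58.0 and 83.7 at P4, and 84.0 and 100.6 at P0 (cultured against P0 -0.25, limma adjusted p = 0.618).

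Of 40 other ubiquitin pathway genes listed, 10 were tested, on 14 probe sets, and 0 were called in any comparison. Over all probe sets tested at most 3.48% were called in any direction of a comparison, so 0 of 14 is near the background. Pomp, the chaperone that assembles the 20S core, lay between 1176.5 and 1270.9 on all 6 arrays. The median log2 change of the 14 was -0.10 for cultured against P0, -0.01 for cultured against P4 and -0.04 for P4 against P0. Among 13 tested probe sets of interferon response and antigen processing genes, 3 were called higher and 0 lower in culture against P0, and 2 and 0 against P4. Of all probe sets tested, 3.48% and 2.16% were called higher in these comparisons. B2m, the light chain of MHC class I, read 1707.5 and 1680.7 in culture, 474.3 and 472.7 at P4, and 472.4 and 501.6 at P0 (cultured against P0 1.78, limma adjusted p = 0.000318). Irf7, an interferon regulatory factor, read 130.6 and 76.6 in culture, 12 and 14.4 at P4, and 14.3 and 15.6 at P0, all fresh readings under the floor of 20. Its other probe set, left out as dim, read 41.9 and 8.8 in culture and at most 9.1 on the fresh arrays. Tap1 was called against P0 on 1 probe set, which read 59.4 and 54.5 in culture against 5.7 and 17.8 at P0, both P0 readings under the floor. That is at least 2.85-fold with the floor, a bound that was not itself tested, and the readings without the floor gave limma adjusted p = 0.0159. The other probe set of Tap1 had a log2 change of 0.07. Tap2, the neighbour of Psmb8, was not called, with a log2 change of 0.10 against P0 (limma adjusted p = 0.877). The list's median was 0.99 against P0 and 0.75 against P4.

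Markers of leukocytes and macrophages also differed between cultured and fresh ovaries. Of 14 tested probe sets of this list, 9 (6 genes) were called higher in culture than at P0 and 10 (7 genes) higher than at P4, with 0 lower and 0 called between P4 and P0. The shares called higher in culture over all probe sets tested were 3.48% and 2.16%. The summed intensity of all 23 probe sets of the list was 5123.9 and 2666 in culture, 511.4 and 652 at P4, and 816.4 and 969.3 at P0. Lyz2, the lysozyme of macrophages, read 2267 and 955.7 in culture, 89 and 102.8 at P4, and 110.8 and 141.3 at P0. No marker was at 0, and Itgam, a myeloid integrin, was at 7.5 or less on every array. Ptprc, which marks all leukocytes, had a log2 change of 0.06 for cultured against P0 on its tested probe set. Its other probe sets, left out as dim, read 52.3 and 23.8 (K03039mRNA_s_at) and 24.9 and 5 (M10072mRNA_s_at) in culture, against at most 6.2 and 3.1 on the fresh arrays. Coro1a, a leukocyte actin-binding protein also left out as dim, read 97.2 and 50 in culture, against 2.8 to 4.8 on the fresh arrays. The summed marker level was 1.92-fold higher on cultured replicate 1 than on replicate 2. Psmb8, Psme2 and both Psmb9 probe sets were also higher on replicate 1. Ube2g2 was higher on replicate 2. The summed interferon and antigen processing list was nearly level (3163.4 and 3251), and its probe sets went either way, such as Irf7 (130.6 and 76.6) and Oas1a (386.7 and 458.6). Constitutive probe sets went either way, such as Psmd1 on AJ006340_s_at (195.7 and 122.6) and Psma6 (1132.7 and 1548.8). The order of 2 arrays cannot tell which cells a transcript came from. The part of leukocytes and macrophages in the values of Psmb8, Psmb9 and Psme2 was not tested. Each cultured array has a chip ID batch of its own, so culture and chip ID batch cannot be told apart. With chip ID batch as a random block, Psmb8, Psme2 and Ube2g2 were called against P0 and Psmb8 against P4. The block cannot remove a batch difference from these comparisons, so the kept calls do not bear on batch.

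**Figure D4:**
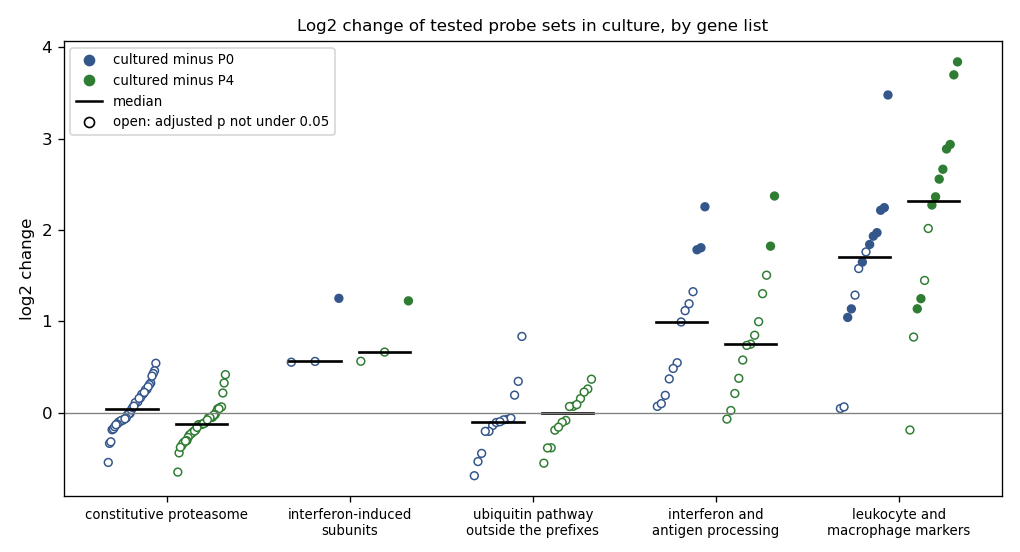
Log2 change (vertical axis) of each tested probe set in 5 gene lists, for cultured minus P0 and cultured minus P4. Points are probe sets, filled where the limma adjusted p is under 0.05, and bars are medians. The constitutive proteasome is centred at 0.04 and -0.13, the probe sets of Psmb8 and Psmb9 at 0.56 and 0.66, and the leukocyte and macrophage markers at 1.70 and 2.32.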

How the data were processed

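Per the labels, total RNA was extracted with Trizol, labelled with biotin and hybridized by Affymetrix procedures. The deposited values are linear probe set intensities that the authors had already scaled, since the mean after trimming 2% at each end was 125.2 on every array. Their algorithm is not given in the sources used here. Groups came from the sample labels.

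A pseudocount of 7.7 (the 20th percentile) was added before log2. The 59 control probe sets and 2622 probe sets with a mean under the 30th percentile were left out, which left 6118. One model of 3 group means was fitted to all 6 arrays (limma 3.58.1 in R 4.3.3, variance trend, 3 residual and 6.45 prior degrees of freedom), and p-values were adjusted by Benjamini-Hochberg over all 6118. The median standard error was 0.259. The number of arrays limits the precision. The fit was tested on simulated data, but no result of that test is given here, so it lends the values no support.

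Per the labels' chip IDs, P0 and P4 arrays of one number share a batch, so the number pairs them. Their deviations correlated at 0.33, and each cultured array had its own batch. What the chip ID batches stand for is not stated.

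Symbols came from the platform annotation, and all 68 members matched RefSeq by gene number. Promoters are from RefSeq (GRCr8). Members and lists were chosen with earlier results of these data known. Named with values were all probe sets of Psmb8, Psmb9, Psme1, Psme2 and Uchl1, every called member, and in each role the 2 brightest and the 2 largest changes, with counts for other lists. Genes outside this (Psmb1, Psmb2, Psmb3, Pomp, Tap2, Itgam, Ptprc, Coro1a) were added after their values were seen. Alternatives were other pseudocounts, filters and normalization, no trend, batch blocks and leaving out each array.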

Additional observations from a re-analysis of the deposited data

How the results depend on the processing

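Under the 2 other pseudocounts and quantile normalization the calls on Psmb8, Psme2 and Ube2g2 against P0, and on Psmb8 against P4, were kept. Without the filter on dim probe sets they were kept too, and at the 50th percentile filter Ube2g2 was no longer tested, leaving 2 called. With chip batch as a random block, 2 of the 62 tested members (Psmb5 and Ube2g2) were called higher for P4 against P0, where the fit without it called 0. That block called 3.37% of all probe sets tested higher, against 0.85% without it, so the 2 are near the background. With the replicate block on the P0 and P4 arrays 0 members were called, where 3.17% of all probe sets tested were called higher and 1.96% lower. The medians for P4 against P0 were 0.16 for constitutive genes and -0.01 for the interferon-induced subunits. This block thus changed no call on a member, though it called more of all probe sets than the fit without it. On leaving out 1 array at a time, the members called higher numbered 0 to 3 for cultured against P0 (0 without either cultured array, 1 without P0 replicate 2) and 0 to 1 for cultured against P4 (0 without P4 replicate 2 or either cultured array). The constitutive median then ranged from 0.0647 to 0.234 for P4 against P0, from -0.066 to 0.132 for cultured against P0 and from -0.199 to -0.0341 for cultured against P4, and the interferon-induced median from 0.37 to 0.85 for cultured against P0. These fits hold fewer arrays, and any other cause of the lost calls was not tested. Of 89 uncalled values of named probe sets, 33 changed sign under some setting, 28 of them only when an array was left out, and 0 of the 4 called values did. No depth is defined for arrays. Probe sets under the control reading of 20, such as Ube2g2 at P0, have only a bound.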
